A study of Homo sapiens with 4 samples.

Results

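The circular RNAs (circles) described here come from genes of the Rab pathway. They were chosen by the gene symbols that the deposited table gives for each circle: a Rab GTPase, or a symbol starting with TBC1D, RABGAP, DENND or RAB3GAP. Antisense circles and TBC1D32 were left out. Of 211599 circles in the table, 1631 met this rule. At least 1 count was found for 1484 of them, of 190152 circles with a count in all. They name 83 gene symbols: 35 Rab GTPases, 31 starting with TBC1D or RABGAP, 15 starting with DENND and the 2 RAB3GAP genes. Among these are DENND2B-AS1, DENND6A-AS1, RABGAP1L-IT1 and TBC1D3P1-DHX40P1, which met the rule by their first letters alone. All but 1 of the symbols had a count.

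All 4 libraries came from MDA-MB-468, a long-established line of human breast cancer cells, in a radiation-resistant derivative that had been given 50 Gy in fractions. In 2 libraries the cells carried a control short hairpin RNA (shCtrl, genotype labelled WT) and in 2 a stable hairpin against HNRNPL (shHNRNPL), an RNA-binding protein that regulates splicing. The comparison asks which circles depend on HNRNPL. Both groups thus share the line and the radiation, the extraction protocol names a single HNRNPL hairpin, and the level of HNRNPL itself was not analysed here, so the knockdown rests on the labels. The labels call the libraries biological replicates and do not say how the cultures were kept apart, so p-values measure the spread between these samples. Circles were read on a nanopore sequencer after rolling reverse transcription with the Induro enzyme and phi29 amplification.

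Rab GTPases are small membrane-bound switches that direct vesicle budding, transport and fusion. DENN-domain proteins load them with GTP and so switch them on, and TBC-domain proteins and the RAB3GAP complex speed up GTP hydrolysis and switch them off. A circle arises when the spliceosome joins the end of an exon back to the start of an upstream exon of the same transcript, so 1 gene can give many circles that differ in the exons they hold. The counts say nothing of the linear messenger RNA or of the proteins.

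The back splices on which the results turn are shown by their position (GRCh38, plus or minus strand as in the table) and by the letters that both ends of the back splice share, as CIRI-long records them. Where such letters exist, the join could be placed at any of their positions. All of the letters are in capitals because all are shared by both ends. The first pair are RAB12 circles with 1 end in common, the next pair are RAB3GAP1 circles with 1 start in common, and the last pair come from DENND10 and TBC1D12.
RAB12, chr18:8624938-8638416, plus strand: GGT
RAB12, chr18:8633189-8638416, plus strand: GG
RAB3GAP1, chr2:135129995-135135932, plus strand: AGGT
RAB3GAP1, chr2:135129995-135153876, plus strand: AGGT
DENND10, chr10:119107948-119132609, plus strand: ACAG
TBC1D12, chr10:94441896-94443423, plus strand: CAG
All 6 have the AG-GT motif of a regular intron around the join. Over the Rab pathway circles with a count, 92.5% of 946 exon circles and 82.3% of 538 intron circles had that motif, beside 90.1% of all exon circles and 77.4% of all intron circles. The sequence of the exons inside the circles was not used here. A mapped microRNA hairpin (MIR4511 or MIR664A) lay between the ends of 16 Rab pathway circles, and in 0 of these did it lie within the exon blocks that the circle retains.

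Library totals lay between 282737 and 556578 counts, lower in both knockdown libraries. A count of 0 allows up to 3 counts, which is between 0.539 and 1.06 per 100000. Amplified copies carry no molecular identifiers, so this floor and all counting intervals cover counting error alone. Control replicate 1 stood apart: exon circles took 70.9% of its counts and between 84.9% and 85.7% of the others. Among Rab pathway circles the exon share was 76.5% in that library and between 89.7% and 90.2% in the other 3. Of the Rab pathway symbols, 16 had counts in control replicate 1 alone. All 8 epithelial markers had circle counts, with sums between 56.8 and 133 per 100000 (133 and 90.0 in controls, 59.8 and 56.8 in knockdowns), whereas 0 of 4 leukocyte and 0 of 6 fibroblast and endothelial markers had any. Most of each epithelial sum came from GRHL2, at 88.3 and 66.8 in controls and 44.2 and 40.2 in knockdowns. ESRP2 had 2 counts, both in knockdown replicate 2. In bulk RNA, fewer cells of a type and less RNA per cell cannot be told apart. The part of control replicate 1 and of the marker sums in the results below was not tested, and values without a control replicate are given beside a number of them.

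Rab pathway circles made up 0.866% and 1.07% of all counts in controls against 0.816% and 0.833% in knockdowns. Both knockdown values were lower than both control values, with means of 0.970% ± 0.148 and 0.824% ± 0.0116 (SD, n = 2). The difference of -0.146 percentage points had p = 0.33 in a two-sided exact permutation test, the smallest p that 2 against 2 allow. It was -0.250 with control replicate 1 left out and -0.0415 with control replicate 2 left out.

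By role, the share of the Rab GTPases themselves was lower and the shares of their regulators overlapped between the groups. Circles of Rab GTPase genes took 0.226% and 0.243% of all counts in controls against 0.0828% and 0.0955% in knockdowns. The groups did not overlap, and the knockdown mean was 0.380 of the control mean (0.235% ± 0.0119 against 0.0891% ± 0.00901, SD, n = 2; two-sided exact permutation test, p = 0.33). Over exon circles alone the shares were 0.221% and 0.242% against 0.0730% and 0.0865%. Without RAB12, the Rab GTPase gene with the most counts, the shares of all counts were 0.125% and 0.0726% in controls against 0.0470% and 0.0545% in knockdowns. That is a ratio of means of 0.513 with the groups still apart.

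TBC1D and RABGAP circles took 0.407% and 0.574% of counts in controls against 0.505% and 0.503% in knockdowns, so both knockdown values lay between the controls. DENND circles took 0.193% and 0.211% against 0.192% and 0.194%, and RAB3GAP circles 0.0387% and 0.0471% against 0.0364% and 0.0394%. Those groups overlapped in both cases. Without RAB12 the share of all Rab pathway circles was 0.765% and 0.904% in controls against 0.781% and 0.792% in knockdowns, which overlap (two-sided exact permutation test, p = 1).

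**Figure D1:**
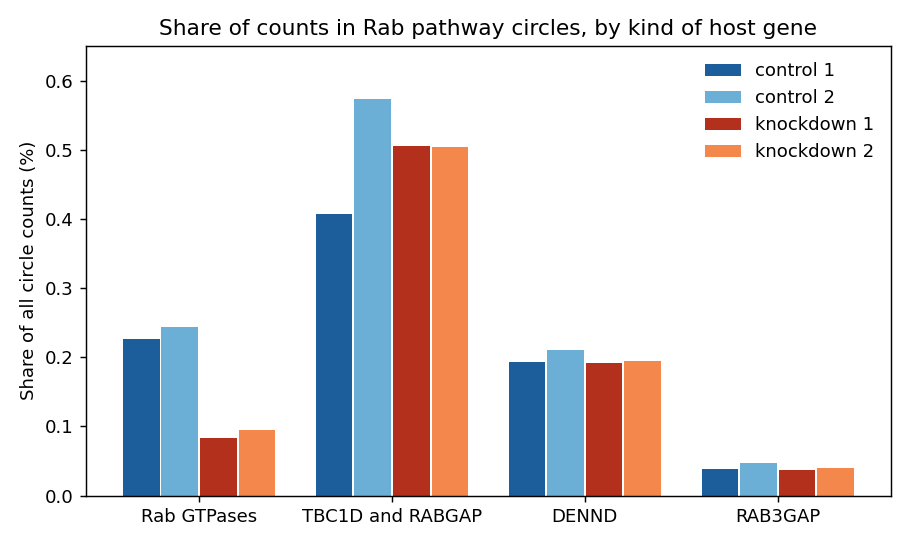
Share of each library's circle counts (vertical axis, percent) held by circles of 4 kinds of Rab pathway gene, 1 bar per library. The knockdown bars of the Rab GTPases are at 0.0828% and 0.0955%, below both control bars at 0.226% and 0.243%, while the bars of the other kinds overlap between the groups.

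For single host genes, the counts of all circles naming a gene were summed. Of the 83 symbols, 57 had at least 10 counts over the libraries and could be tested, and 26 did not. In edgeR's quasi-likelihood test with Benjamini-Hochberg adjustment over 8379 host genes, 0 of the 57 passed an adjusted p of 0.05, where 0.442% of all host genes did. At an unadjusted p under 0.05 were 2 Rab pathway genes higher after knockdown (RAB17 and DENND4C; 7.58% of all host genes) and 5 lower (RAB12, RAB11A, RAB21, TBC1D22A and TBC1D30; 6.18% of all host genes). DESeq2 and limma voom with group weights each called 2 of the 57 (3.51%), DENND4C higher and RAB12 lower, where they called 2.21% and 4.81% of all host genes. The groups did not overlap for 3 genes higher (15.3% of all host genes) and 23 genes lower (36.7%), that is 5.26% and 40.4% of the 57. The median log2 fold change was -0.27 over the Rab pathway genes and -0.26 over all host genes. With genes at 0 in a group set at their bound against the floor, these medians were -0.27 and -0.23. Scaling by library size in place of TMM moved the 2 medians to -0.57 and -0.59, so log2 fold changes smaller than about that shift depend on the scaling.

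The 23 Rab GTPase genes tested had a median log2 fold change of -0.79, with 3 above 0 and 20 below, and groups that did not overlap for 1 higher and 11 lower. Of these, RAB3D, RAB22A, RAB18, RAB20 and RAB30 had 24, 20, 18, 15 and 16 counts in control replicate 1. In each other library they had 0 to 2, so they passed the minimum of 10 counts only through control replicate 1. Without control replicate 1, RAB2A, RAB31, RAB1A, RAB7A and RAB10 turned from below 0 to log2 fold changes of 1.87, 1.36, 0.41, 0.07 and 0.005. RAB28 turned from 0.11 to -0.03. RAB12, RAB11A and RAB27A stayed below 0, at -1.91, -1.58 and -2.29, as did RAB6A, RAB4A, RAB23, RAB14 and RAB5A. RAB17 stayed above 0. The other Rab GTPase genes fell under the minimum without that library and have no value. How far the median of -0.79 rests on control replicate 1 was not tested. Nor was it tested how far the 20 below 0 rest on genes that passed the minimum through their controls alone. The 20 TBC1D and RABGAP genes had a median of -0.14, with 8 above 0 and 12 below, and 0 higher and 8 lower without overlap. The 12 DENND genes had a median of -0.16, with 5 above 0 and 7 below, and 2 higher and 4 lower without overlap. Both RAB3GAP genes were close to 0. For comparison, all host genes had a median of -0.26. Of all host genes, 36.7% had both knockdown libraries below both controls and 15.3% had both above.

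**Figure D2:**
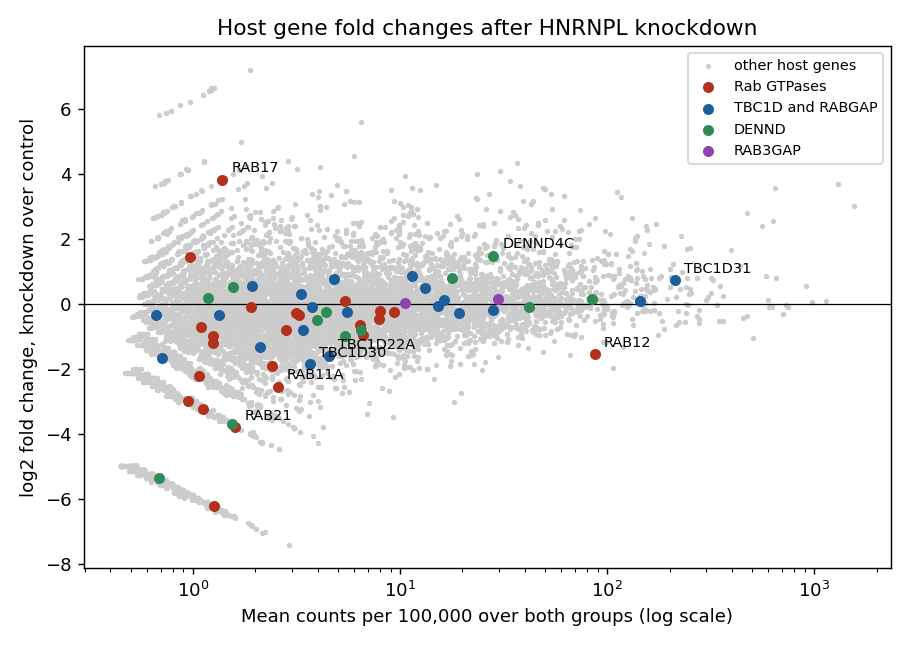
Log2 fold change of knockdown over control (vertical axis) against mean counts per 100000 over both groups (horizontal axis, log scale) for all tested host genes, with the 57 Rab pathway genes in colour by kind. RAB12 lies at -1.55 and DENND4C at 1.49, the points in slanted bands at the left have few counts, and RAB3D and DENND2B, the 2 lowest coloured points, had 0 counts in both knockdown libraries, so their fitted values are no measured folds.

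Among the Rab GTPases, RAB12, which acts in transport from recycling endosomes to lysosomes, had 477 and 949 circle counts in controls against 101 and 160 in knockdowns. Both knockdown libraries lay below both controls after scaling, at 38.4 ± 3.71 per 100000 against 136 ± 49.2 in the controls (SD, n = 2). The log2 fold change was -1.55 ± 0.44 (SE; adjusted p = 0.206, edgeR). It was -1.91 with control replicate 1 left out and -0.81 with control replicate 2 left out. Most RAB12 counts came from 1 circle, which held 75.3% of the gene's counts.

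RAB11A, a marker of the recycling endosome, had 33 and 12 counts in controls against 1 and 3 in knockdowns. RAB21, an early endosomal Rab that acts on integrin traffic, had 24 and 6 against 0 and 1. RAB27A, which acts in secretion of lysosome-related organelles and exosomes, had 13 and 29 against 1 and 5. For all 3 both knockdown libraries lay below both controls, at low counts. The log2 fold change was -2.54 ± 0.92 (SE) for RAB11A (adjusted p = 0.294, edgeR) and -1.91 ± 0.89 (SE) for RAB27A (adjusted p = 0.391, edgeR). Without control replicate 1 that of RAB11A was -1.58, and without control replicate 2 that of RAB27A was -1.04. With 1 count in the knockdowns, RAB21 is given as a ratio of summed counts per library total, 19.6 for control over knockdown with a 95% counting interval of 3.26 to 801 and an adjusted p of 0.308 by edgeR.

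RAB14, which acts between the Golgi and endosomes, had 59 and 37 counts against 6 and 21, a log2 fold change of -0.95 ± 0.56 (SE; adjusted p = 0.469, edgeR) and -0.51 without control replicate 1. RAB17, a Rab found mainly in epithelial cells, had 2 and 0 counts in controls against 8 and 9 in knockdowns. It was the only tested Rab GTPase for which both knockdown libraries lay above both controls. The ratio of knockdown over control was 13.0, with a 95% counting interval of 3.08 to 116 and an adjusted p of 0.274 by edgeR. All RAB17 counts were in intron circles.

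The other Rab GTPases with the most counts gave smaller differences. RAB6A, a Golgi Rab, had 42 and 74 counts against 24 and 27 (log2 fold change -0.25), RAB4A, which acts in fast recycling, had 32 and 72 against 17 and 23 (-0.46), and RAB7A, the late endosomal Rab, had 55 and 40 against 21 and 22 (-0.20). A single circle held 95.1% of the RAB4A counts. The groups overlapped for RAB7A and not for RAB6A and RAB4A. Without control replicate 2 the log2 fold changes of RAB6A and RAB4A were 0.35 and 0.39, and without control replicate 1 that of RAB7A was 0.07. RAB3D, a Rab of regulated secretion, had 24 counts in control replicate 1 and 0 in each of the other 3 libraries.

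**Figure D3:**
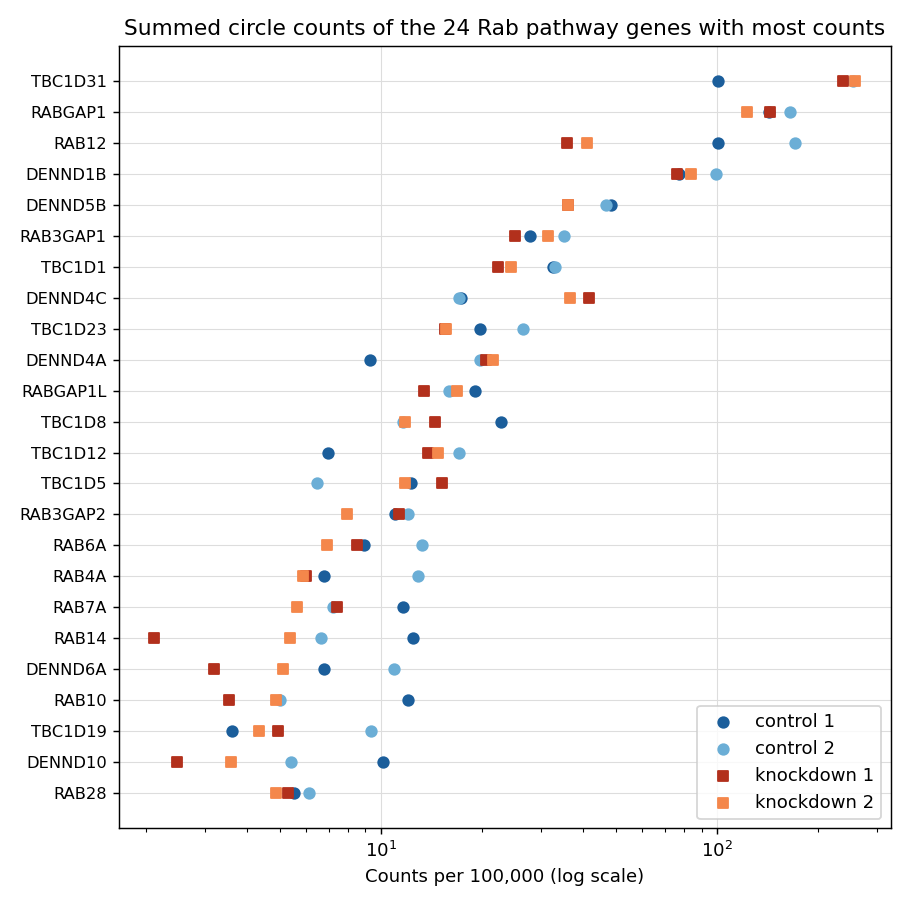
Summed circle counts per 100000 (horizontal axis, log scale) of the 24 Rab pathway genes with the most counts, with circles for control and squares for knockdown libraries; marks can hide each other where values are close. The DENND4C squares lie to the right of both control marks and the RAB12 squares to the left of them, while control replicate 1 of TBC1D31 stands alone at 101.

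Among the TBC-domain genes, TBC1D31, which encodes a protein of centriolar satellites, had the most counts. It had 476 and 1411 in controls against 672 and 1009 in knockdowns, or 101 and 254 against 238 and 258 per 100000. Control replicate 1 was low and control replicate 2 lay between the knockdown values. The log2 fold change was 0.74 ± 0.55 (SE; adjusted p = 0.571, edgeR), and it was 0.21 with control replicate 1 left out and 1.88 with control replicate 2 left out. RABGAP1, a centrosome-associated regulator of RAB6A, had 674 and 919 counts against 407 and 479. Its groups overlapped, and its log2 fold change was 0.09 ± 0.39 (SE), with a sign that turned to -0.21 under library-size scaling.

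TBC1D22A, a TBC-domain protein, had 35 and 39 counts in controls against 4 and 9 in knockdowns. Its controls were close to each other at 7.21 ± 0.284 per 100000 and its knockdowns at 1.86 ± 0.629 (SD, n = 2). This gave a log2 fold change of -1.60 ± 0.56 (SE; adjusted p = 0.279, edgeR), and -1.61 and -1.36 without control replicate 1 and 2. Exon circles held 24.1% of the TBC1D22A counts, and over exon circles alone the log2 fold change was -0.79. TBC1D30, a regulator of RAB8 at the primary cilium, had 19 and 44 counts against 5 and 4, a log2 fold change of -1.84 ± 0.71 (SE; adjusted p = 0.313, edgeR), and -0.99 without control replicate 2. Circles that name TBC1D30 alone held fewer than 10 of its 72 counts, so most of these counts could belong to another gene.

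TBC1D1, a Rab GTPase-activating protein of glucose transporter traffic, had 154 and 184 counts against 63 and 95, and TBC1D23, which tethers endosome-derived vesicles at the Golgi, had 93 and 147 against 44 and 61. Scaled to library totals both genes were lower in both knockdown libraries, where TBC1D1 was at 22.3 and 24.3 per 100000 against 32.6 and 33.1 in the controls, and TBC1D23 at 15.6 in each against 19.7 and 26.4. With TMM their log2 fold changes were -0.18 and -0.27, close to the median of all host genes, and 0.10 and 0.24 without control replicate 2. TBC1D3 and TBC1D3D are near-identical copies with few counts (4 and 14 in all), and reads could have been split between them.

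Among the DENN-domain genes, DENND4C, an activator of RAB10, had the smallest p-value of the 57 genes. It had 82 and 95 counts in controls against 118 and 143 in knockdowns, although the knockdown libraries were smaller. Per 100000, the controls were at 17.2 ± 0.204 and the knockdowns at 39.2 ± 3.62 (SD, n = 2), with both knockdowns above both controls. The log2 fold change was 1.49 ± 0.33 (SE; adjusted p = 0.122, edgeR), and 1.43 and 1.74 without control replicate 1 and 2. DENND4A, of the same subfamily, had 44 and 110 counts against 58 and 84. Both knockdown libraries lay above both controls at 21.0 ± 0.703 against 14.5 ± 7.39 per 100000 (SD, n = 2), giving a log2 fold change of 0.79 ± 0.46 (SE; adjusted p = 0.470, edgeR). Without control replicate 1 it was 0.33 and without control replicate 2 it was 1.75.

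DENND10, an activator of RAB27, had 48 and 30 counts in controls against 7 and 14 in knockdowns, a log2 fold change of -0.98 ± 0.52 (SE; adjusted p = 0.435, edgeR) and -0.56 without control replicate 1. Both knockdown libraries lay below both controls. DENND1B, an activator of RAB35, had 365 and 554 counts against 215 and 328, with overlapping groups and a log2 fold change of 0.15 ± 0.38 (SE) that was -0.15 under library-size scaling. DENND5B had 228 and 260 counts against 102 and 141, with 36.1 ± 0.0193 per 100000 in knockdowns and 47.5 ± 1.09 in controls (SD, n = 2). Its fitted log2 fold change was -0.09 ± 0.33 (SE) with TMM.

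RAB3GAP1, the catalytic subunit of the complex that inactivates RAB3, had 131 and 195 counts in controls against 71 and 123 in knockdowns. The groups overlapped, and the log2 fold change was 0.15 ± 0.36 (SE), or -0.15 under library-size scaling. Over circles that name no other gene it was 0.66. Among the circles left out there is 1 of the gene's main circles, the 8-exon circle described below, which also names SNORA40B, a small nucleolar RNA gene. RAB3GAP2, the other subunit, had 52 and 67 counts against 32 and 31, giving a log2 fold change of 0.03.

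At the level of single circles, 207 Rab pathway circles had at least 10 counts and were tested. In edgeR's quasi-likelihood test 0 of 207 passed an adjusted p of 0.05, and the same share of all 21576 circles, 0%, did. At an unadjusted p under 0.05 were 11 higher (5.31%, beside 9.29% of all circles) and 11 lower (5.31%, beside 4.26% of all circles). DESeq2 called 3 Rab pathway circles, where it called 4.88% of all circles, and voom called 1, where it called 1.37%. The groups did not overlap for 37 circles higher (17.9%, beside 23.2% of all circles) and 47 lower (22.7%, beside 22.9%). The median log2 fold change was -0.34 over Rab pathway circles and -0.41 over all circles, or -0.21 and -0.24 with circles at 0 in a group set at their bound. In data simulated on the 21576 circles, 0.5% of 8-fold changes were recovered, so the count of 0 says little. The changes were placed only in circles with at least 40 counts, and all circles were given 1 common dispersion. Of the Rab pathway circles, 52 had that many counts, so recovery for the others was not simulated.

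The RAB12 circle of 5 exons (chr18:8624938-8638416, 663 nt) had 338 and 755 counts in controls against 70 and 108 in knockdowns. Both knockdown libraries lay below both controls, at 26.2 ± 2.05 against 104 ± 45.3 per 100000 (SD, n = 2). This gave a log2 fold change of -1.99 ± 0.35 (SE; adjusted p = 0.112, edgeR). The adjusted p was 2.93e-06 by DESeq2. The log2 fold change was -2.20 and -1.59 without control replicate 1 and 2. The RAB12 circle that starts downstream (chr18:8633189-8638416, 4 exons, 602 nt) had 16 and 64 counts against 4 and 8 and a log2 fold change of -2.05 ± 0.65 (SE; adjusted p = 0.261, edgeR). Without control replicate 2 its value was -1.07. Of the 9 tested RAB12 circles, 8 had a log2 fold change below 0. For 4 both knockdown libraries lay below both controls, as for 22.9% of all circles. The groups overlapped for 5, of which 1 had counts in control replicate 1 alone.

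Most RAB12 counts came from circles with 1 end in common. The end at 8638416 was common to 18 RAB12 circles, which held 83.6% and 96.7% of the gene's counts in controls against 82.2% and 82.5% in knockdowns. Within them, the 5-exon circle took 84.7% and 82.2% in controls against 84.3% and 81.8% in knockdowns. That share was thus alike in the 4 libraries while the level of the circle differed.

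Another pattern was found at RAB3GAP1, where a pair of circles with the same start differed between the groups in opposite directions. The shorter circle (chr2:135129995-135135932, 6 exons, 950 nt) had 4 and 8 counts in controls against 21 and 34 in knockdowns, 1.14 ± 0.418 against 8.07 ± 0.904 per 100000 (SD, n = 2). That is a log2 fold change of 2.75 ± 0.47 (SE; adjusted p = 0.109, edgeR). This adjusted p was the smallest of all tested Rab pathway circles, and it was 0.00211 by DESeq2. The longer circle (chr2:135129995-135153876, 8 exons, 1316 nt) had 19 and 43 counts in controls against 1 and 7 in knockdowns. This circle had a log2 fold change of -2.35 ± 0.72 (SE; adjusted p = 0.244, edgeR).

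Of the counts with that RAB3GAP1 start, the 8-exon circle held 76.0% and 75.4% in controls against 4.35% and 16.7% in knockdowns, and the 6-exon circle held 16% and 14.04% against 91.3% and 81.0%. These shares rest on 25, 57, 23 and 42 counts in the same order of libraries, and the start itself took between 19.1% and 34.1% of the gene's counts. The mean number of exons in RAB3GAP1 circles was 10.7 and 10.1 in controls against 8.43 and 8.57 in knockdowns. The start was singled out after its values had been seen, so its shares are a description.

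**Figure D4:**
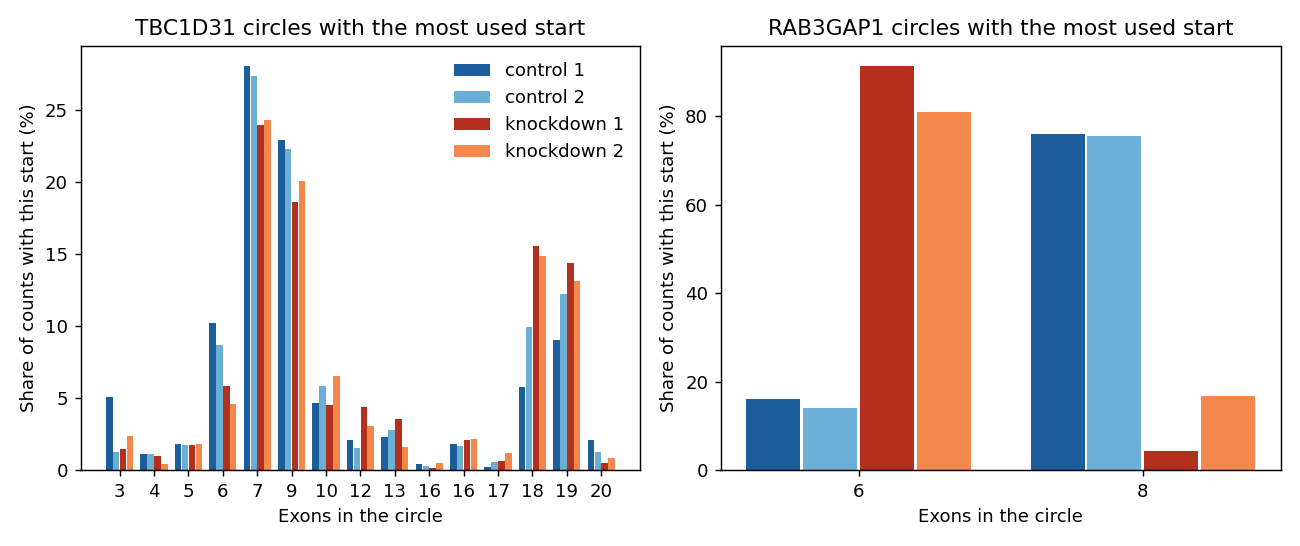
Share of the counts with the most used start (vertical axis, percent) by the number of exons in the circle (horizontal axis), for TBC1D31 and RAB3GAP1 circles with at least 10 counts, 1 bar per library; each group of bars is 1 circle. At RAB3GAP1 the 8-exon circle is at 76.0% and 75.4% in the controls and at 4.35% and 16.7% in the knockdowns, and at TBC1D31 the 18-exon circle is at 5.79% and 9.96% against 15.5% and 14.8%.

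TBC1D31 used 1 start for nearly all of its circle counts. The start at chr8:123077111 was common to 26 circles that held between 90.8% and 93.9% of the gene's counts in each library. The 7-exon circle with this start had 121 and 362 counts in controls against 148 and 228 in knockdowns, and the 9-exon circle had 99 and 295 against 115 and 188. Both had overlapping groups, with log2 fold changes of 0.30 ± 0.41 and 0.27 ± 0.42 (SE). The 18-exon circle had 25 and 132 counts against 96 and 139, and both of its knockdown values lay above both controls after scaling.

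That 18-exon TBC1D31 circle had a log2 fold change of 1.29 ± 0.59 (SE; adjusted p = 0.431, edgeR), and 0.72 and 2.56 without control replicate 1 and 2. Its share of the counts with this start was 5.79% and 9.96% in controls against 15.5% and 14.8% in knockdowns. The 19-exon circle had 39 and 162 counts against 89 and 123, and its share was 9.03% and 12.2% against 14.4% and 13.1%. The 7-exon circle's share was 28.0% and 27.3% against 23.9% and 24.3%. Circles of 10 or more exons made up 29.8% and 37.0% of the TBC1D31 exon circle counts in controls against 45.5% and 43.5% in knockdowns, without overlap. The 12-exon circle (chr8:123077111-123126687) had 9 and 20 counts against 27 and 29, a log2 fold change of 1.58 ± 0.45 (SE; adjusted p = 0.219, edgeR). The circles of 12, 18 and 19 exons also span HMGB1P19, a pseudogene.

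RABGAP1 likewise used a main start, at chr9:122957011, with 25 circles. They held 65.1% and 67.8% of its counts in controls against 74.9% and 80.6% in knockdowns. The 12-exon circle from this start (chr9:122957011-123020459, 1843 nt) had 211 and 283 counts against 136 and 176 and took 48.1% and 45.4% of the start's counts in controls against 44.6% and 45.6% in knockdowns. In edgeR the log2 fold change came to -0.09 ± 0.30 (SE), and the 9-exon circle (chr9:122957011-122998766) with 86 and 119 counts against 57 and 66 had -0.15 ± 0.33 (SE). Both had overlapping groups.

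**Figure D5:**
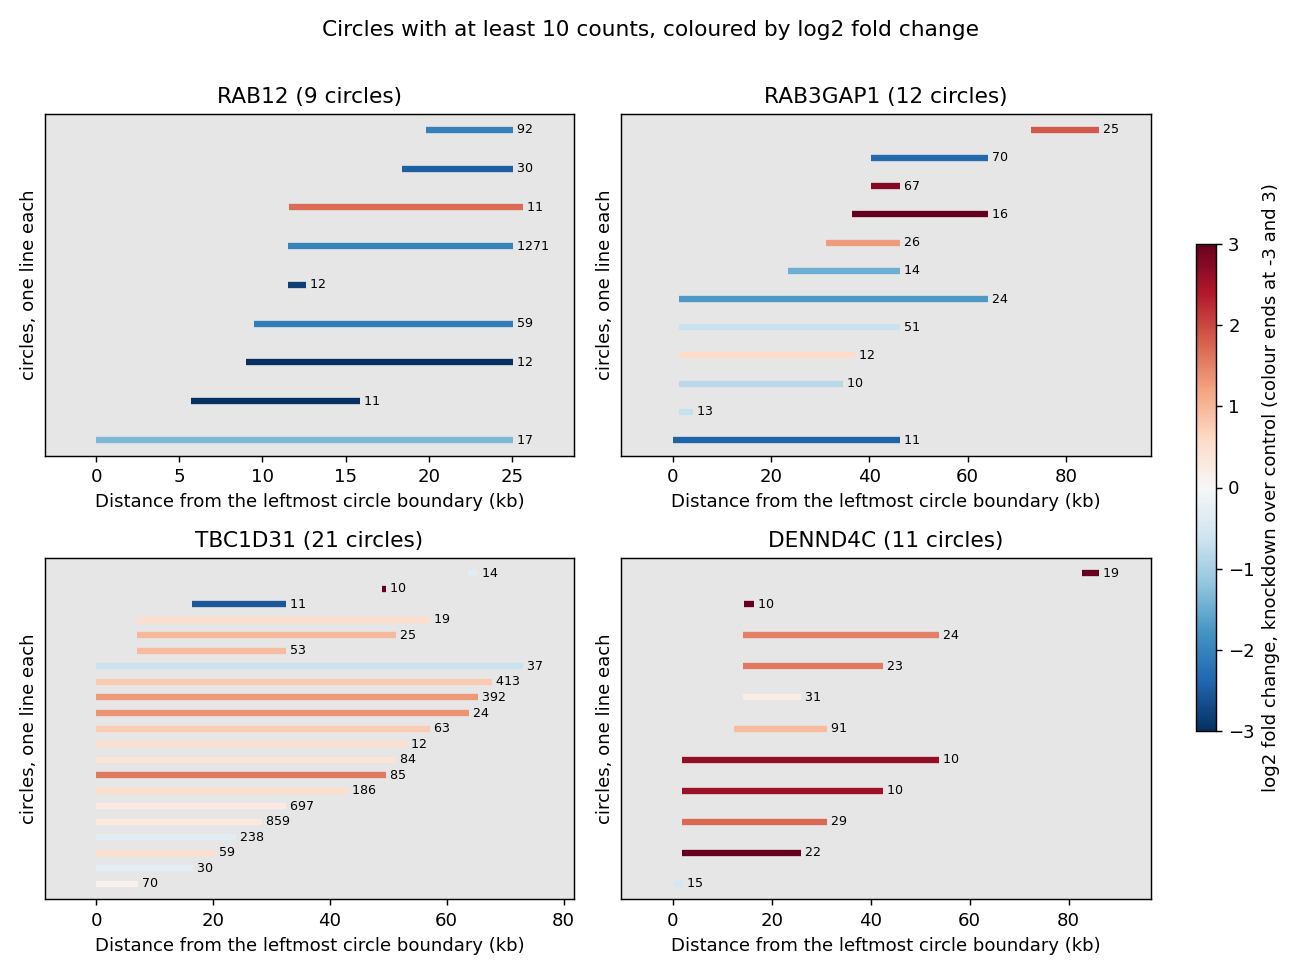
Spans of the circles with at least 10 counts from 4 Rab pathway genes (horizontal axis, kb from the leftmost circle boundary; 1 line per circle), coloured by log2 fold change of knockdown over control, with the total count beside each line. Of the RAB12 lines 8 of 9 are blue (below 0), of the DENND4C lines 10 of 11 are red (above 0), and the RAB3GAP1 lines that share 1 start carry opposite colours.

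For DENND4C, 10 of 11 tested circles had a log2 fold change above 0, and 9 had both knockdown libraries above both controls, as 23.2% of all circles had. An 8-exon circle (chr9:19276158-19300331, 1328 nt) had 1 count in each control against 11 and 9 in the knockdowns, a ratio of 15.3 with a 95% counting interval of 3.71 to 135 and an adjusted p of 0.157 by edgeR. The DENND4C circle with the most counts from its main start at chr9:19286769 (8 exons, 1182 nt) had 13 and 27 counts in controls against 20 and 31 in knockdowns. A DENND4A circle of 3 exons (chr15:65752379-65761438, 662 nt) had 0 counts in both controls and 5 and 7 in the knockdowns, at least 3.03-fold higher against the floor of 3 counts per library.

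The lower circles of DENN genes included DENND10 (chr10:119107948-119132609, 7 exons, 862 nt), with 9 and 15 counts in controls and 1 in each knockdown. The ratio of control over knockdown was 7.85 with a 95% counting interval of 1.95 to 68.5. A DENND1B circle (chr1:197595208-197658369, 8 exons, 691 nt) had 16 and 42 counts against 5 and 5, giving a log2 fold change of -1.86 ± 0.57 (SE; adjusted p = 0.244, edgeR). Other DENND1B circles with the same end had other values: the 5-exon circle had 49 and 105 counts against 41 and 50, and the 7-exon circle 43 and 38 against 41 and 52.

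DENND5B also used 1 start for a pair of circles that differ by 1 exon. The 4-exon circle (chr12:31451940-31495919, 1502 nt) had 99 and 96 counts in controls against 39 and 66 in knockdowns, giving a log2 fold change of -0.40 ± 0.39 (SE). The 5-exon circle (chr12:31451940-31499671, 1568 nt) had 42 and 52 counts against 7 and 17, with -1.45 ± 0.46 (SE; adjusted p = 0.260, edgeR). The 5-exon circle thus took 28.97% and 32.3% of the counts with that start in controls against 14.3% and 19.8% in knockdowns, without overlap.

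Intron circles of TBC1D5 and TBC1D12 had higher values in both knockdown libraries than in both controls. A TBC1D5 intron circle (chr3:17546223-17549414, minus strand, 3192 nt), from the gene of a retromer-bound regulator of RAB7, had 0 counts in both controls and 8 and 9 in the knockdowns. It was at least 4.37-fold higher against the floor of 3 counts per library, with an adjusted p of 0.158 by edgeR and 0.0284 by DESeq2. The TBC1D12 intron circle shown above (1528 nt) had 1 and 9 counts in controls against 15 and 20 in knockdowns, giving a log2 fold change of 2.44 ± 0.74 (SE), an adjusted p of 0.244 by edgeR, and 1.83 and 4.28 without control replicate 1 and 2. In contrast, 12 of the 31 tested Rab pathway intron circles had counts in control replicate 1 alone.

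Unequal change among the circles of a gene was tested for 23 Rab pathway genes with 2 or more tested circles. In edgeR's F test per gene 0 of 23 passed an adjusted p of 0.05, where 3.94% of 2335 host genes did, and 4 had an unadjusted p under 0.05, where 17.9% of host genes did. Simes' method over circles also called 0, where 2.27% of host genes passed. By that method 2 of the 23 had an unadjusted p under 0.05, where 257 of the 2335 host genes did. The smallest adjusted p were 0.110 for DENND1B, 0.173 for RAB3GAP1 and 0.190 for DENND4C. The DENND1B circles spanned log2 fold changes from an intron circle with 11 counts in control replicate 1 alone to 1.09 ± 1.00 (SE) for a 12-exon circle with 3 and 3 counts against 4 and 5. At RAB3GAP1 the range ran from -2.44 ± 1.91 (SE), for a 15-exon circle with 4 and 6 counts against 1 and 0, to the 6-exon circle described above. At DENND4C it ran from -0.54 ± 1.27 (SE), for an intron circle with 8 and 2 counts against 3 and 2, to another intron circle with 0 and 0 against 7 and 3. All but the RAB3GAP1 6-exon circle had few counts. The test used circles that name 1 gene, so the RAB3GAP1 8-exon circle was not in it.

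At equal depth, 282737 counts per library, an expected 701 and 550 different Rab pathway circles would be seen in controls against 519 and 527 in knockdowns. Both knockdown values lay below both controls, with a mean difference of -103 (two-sided exact permutation test, p = 0.33), which was -27.4 with control replicate 1 left out and -179 with control replicate 2 left out. Exon circles numbered 450 and 415 against 407 and 403, and intron circles 252 and 136 against 112 and 124. Over all circles the controls had 84892 and 60289 and the knockdowns 62513 and 64048, which overlap.

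Weighted by counts, Rab pathway exon circles held more exons in both knockdown libraries than in both controls. The count-weighted mean number of exons was 7.40 and 8.24 in controls against 9.11 and 8.84 in knockdowns, a difference of 1.16 without overlap (two-sided exact permutation test, p = 0.33). It was 0.739 with control replicate 1 left out and 1.57 with control replicate 2 left out. Over all exon circles the values were 6.84 and 7.24 against 6.97 and 6.75, which overlap. The count-weighted median length of Rab pathway exon circles was 1132 nt in both controls and 1285 and 1200 nt in the knockdowns.

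RAB12 and TBC1D31 bear on that difference in exon number. Without RAB12, whose main circle has 5 exons, the means were 7.73 and 8.85 against 9.29 and 9.03, a difference of 0.870. Without RAB12 and TBC1D31 they were 7.36 and 8.08 against 8.28 and 7.88, which overlap. With each detected circle counted once, the difference was 0.167 exons with overlapping groups. Within single genes the count-weighted mean went either way. For TBC1D31 it was 9.60 and 10.6 in controls against 11.3 and 11.1 in knockdowns. For DENND4C it was 9.43 and 8.37 in controls against 8.09 and 7.77 in knockdowns. By kind of gene, the median detected exon circle had 3 exons for Rab GTPases, 7 for TBC1D and RABGAP genes, 7 for DENND genes and 10 for RAB3GAP genes.

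The other genes of the Rab pathway were taken from a list of 98: further TBC and DENN proteins, other activators, prenylation factors and GDIs, effectors and Rab-like proteins. Circle counts were found for 69, and 52 were tested. In edgeR's quasi-likelihood test 2 of 52 passed an adjusted p of 0.05, both higher, and 0 lower, where 0.442% of all host genes passed. At an unadjusted p under 0.05 were 8 higher and 3 lower, where 7.58% and 6.18% of all host genes were. The median log2 fold change was -0.01, with 26 above 0 and 26 below. RAB3IP, also called Rabin8, the activator of RAB8, rose from 34 and 65 counts to 246 and 367, a log2 fold change of 3.54 ± 0.44 (SE; adjusted p = 0.0382, edgeR). EXOC6, an exocyst subunit that binds Rab GTPases, rose from 62 and 46 counts to 152 and 256, a log2 fold change of 2.82 ± 0.37 (SE; adjusted p = 0.0382, edgeR). Neither call held under edgeR's newer dispersion method, with an adjusted p of 0.0867 for each. There 0 of 8379 host genes passed, so that setting cannot single out these genes. Nor did either call hold with 1 knockdown library left out. Those fits leave 1 library in that group, so they cannot judge the calls. Without knockdown replicate 1 and 2 the log2 fold change of RAB3IP was 3.64 and 3.47. That of EXOC6 was no lower than 2.65, its value without knockdown replicate 2. For RAB3IP the call was also lost over circles that name 1 gene, at a log2 fold change of 2.83 and an adjusted p of 0.425. The fits without a control replicate also leave 1 library in a group, so they cannot judge the calls either. Without control replicate 1 and 2 the log2 fold change of RAB3IP was 3.19 and 4.22, and that of EXOC6 was 3.09 and 2.77. Under the remaining settings the log2 fold change ranged from 3.25 to 3.61 for RAB3IP. For EXOC6 it ranged from 2.47 to 3.54. The adjusted p was under 0.05 in each of these remaining settings. GDI2, which extracts Rab GTPases from membranes, had 221 and 515 counts against 486 and 790, a log2 fold change of 1.69 ± 0.49 (SE; adjusted p = 0.213, edgeR), and 1.26 and 2.58 without control replicate 1 and 2.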

How the data were processed

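The deposited counts are whole numbers per circle and library; CIRI-long made the calls, per the file headers. The submitters' processing notes name GRCh38.p14 and DESeq2; the aligner and versions are not given in the sources used here. Members, lists and tests were chosen with earlier results of these data known. Counts of every circle that is not antisense were summed to each gene it names (18.1% of Rab pathway counts also name a further gene), and counts per 100000 were computed from library totals (472428 and 556578 control, 282737 and 390547 knockdown). Features with at least 10 counts over the 4 libraries were tested on the whole table by edgeR's quasi-likelihood test (edgeR 4.0.16, R 4.3.3, TMM, default dispersion method, Benjamini-Hochberg adjustment, threshold 0.05), with circle use by diffSpliceDGE; DESeq2 1.42.0 and limma voom 3.58.1 were alternatives. Circles under 10 counts held 24.8% of Rab pathway counts and were not tested. Standard errors were derived from the F statistic.

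Genes named were the 8 higher and 8 lower with the smallest p among those whose groups do not overlap, and the 10 with the most counts; circles, the 6 higher and 6 lower and the 8 with the most counts; for circle use, the 3 genes with the smallest p. Further genes (RAB6A, RAB4A, RAB7A, RAB3D, RAB3GAP2, TBC1D3, TBC1D3D) and circles at shared ends were chosen after their values were seen. On simulated data the host gene test recovered 9% of 4-fold, 61% of 8-fold and 93% of 16-fold changes, and the circle test 0%, 0.5% and 25%. These changes were placed only in features with at least 40 counts, under 1 common dispersion. The RefSeq gene table (GRCh38.p14) held 81 of the 83 symbols, and 97.6% of 1483 circle and gene pairs lay within 1000 nt of the gene there.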

Additional observations from a re-analysis of the deposited data

How the results depend on the processing

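Of the Rab pathway host genes 0 passed the threshold, as was the case under scaling by library size or by the size factors of DESeq2, the newer dispersion method, circles that name 1 gene, the first gene named, and exon circles. It was 2 with no filter, DESeq2 or voom (DENND4C and RAB12), where 2.78%, 2.21% and 4.81% of all host genes passed, and 1 when 5 counts were needed in 2 libraries or 40 in total (DENND4C), where 1.75% and 2.27% did. Leaving out 1 library gave 0 to 23 (10 without control replicate 1 and 23 without control replicate 2, beside 25.1% and 36.3% of all host genes, where the spread comes from the knockdown pair alone). For circles it was 0, and 1 with no filter or voom (RAB12), 6 with at least 5 counts in 2 libraries, 2 with at least 40 counts or exon circles, 3 with DESeq2, and 0 to 48 with 1 library left out (39 and 48 without control replicates 1 and 2). In that order, 0.248%, 1.37%, 12.1%, 11.4%, 2.40%, 4.88%, 28.2% and 43.4% of all circles passed. For circle use it was 0, 1 with at least 40 counts, and 0 to 12 with 1 library left out (11 and 12 without control replicates 1 and 2), where 17.5%, 48.9% and 50.4% of all host genes in that test passed. The cause was not tested, apart from the fewer features under stricter filters.

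Libraries of the same number had deviations from their group means with r = 0.0706 (across 4944 circles, which are not independent), and no label ties the numbers to a shared culture, so they were treated as names. With a replicate block 1 host gene, 11 circles and 5 genes in circle use passed, beside 3.85%, 7.51% and 23% of all. Within same-numbered libraries the share differed by -0.0496 and -0.242 percentage points, circles at equal depth by -182 and -23.7, length by 153 and 68 nt and exon number by 1.71 and 0.606.

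The sign of small log2 fold changes turned with library-size scaling for DENND1B (-0.15), RAB3GAP1 (-0.15) and RABGAP1 (-0.21), and over exon circles alone for the RABGAP1 12-exon circle (0.021). With 1 library left out it also turned, over these ranges: DENND1B -0.074 to 0.63, RAB3GAP1 -0.055 to 0.62, RABGAP1 -0.076 to 0.47, DENND5B -0.13 to 0.16, TBC1D23 -0.52 to 0.24, the TBC1D31 circles of 7 and 9 exons -0.062 to 0.96 and -0.082 to 0.94 (each lowest without control replicate 1 and highest without control replicate 2), TBC1D1 -0.26 to 0.098, the DENND5B 4-exon circle -0.59 to 0.011, and the RABGAP1 circles of 9 and 12 exons -0.14 to 0.069 and -0.094 to 0.049. Over named genes and circles under all alternatives, 34 gene values and 49 circle values passed the threshold that the main value had missed, and 7 gene values, all of RAB3IP or EXOC6, lost it; the cause was not tested. The share without RAB12, all alternatives of the Rab GTPase share, and the exon number without RAB12 were chosen after seeing the data. With 1 library left out, the share difference ranged from -0.250 to -0.0415.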
